A study of Mus musculus with 202 samples.

Results

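Hmgcs1, Idi1, Fdft1, Sqle, Lss, Cyp51 and Dhcr7 encode enzymes that build cholesterol, and their RNA was followed in single mouse oocytes. The 7 genes were chosen by name and are the 7 count lines that carry these symbols, of 23995 gene symbols in all. The working name of the set also speaks of uptake, yet each of the 7 encodes a synthesis enzyme. Genes of uptake, of control by sterols and of efflux are therefore described beside them from separate lists.

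The oocytes came from C57Bl/6J mice and had been collected at metaphase II (MII), the stage at which an ovulated egg waits for the sperm. Their polyadenylated RNA was read by Smart-seq2, a full-length method for single cells. The question, by the title of the study, is whether prenatal androgen exposure carries susceptibility to polycystic ovary syndrome across generations. Groups are named for the generation of the oocyte donor (F1, F2 or F3) and for what the F0 female received. CD is the control diet and HFHS a diet high in fat and sugar, while Veh is vehicle and DHT is dihydrotestosterone, an androgen that cannot be converted to oestrogen. No genotype other than the strain is given, and no treatment of the oocyte donors themselves is named in the labels.

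Of 202 libraries, 157 passed the filter of 100000 gene counts and 4000 genes with a count. The F1 groups CD+Veh, CD+DHT, HFHS+Veh and HFHS+DHT kept 10, 8, 14 and 13 oocytes, and the F2 groups in the same order kept 16, 25, 20 and 5. F3 gave 20, 13 and 13 oocytes for CD+Veh, CD+DHT and HFHS+Veh, with no HFHS+DHT group analysed here. Kept libraries held 133654 to 16359078 gene counts. Levels are given as CPM, counts scaled to the same total of gene counts in every library, so that each is a share of its library, with spike-in RNAs left out of the total. Of 16 oocyte markers, 15 had a median of at least 1 RPKM, a read level corrected for gene length and library depth. Of 34 cumulus and granulosa markers, 22 had a median of 0 and 7 a median of at least 1 RPKM, the highest at 408. Of 3 endothelial markers, 1 had a median of 27.1 RPKM, while all 4 theca markers and all 3 immune markers with a line had medians of 0. For 36 libraries the characteristics contradict the title, 20 of them in the hormone and 16 in the generation, and titles were used throughout. The hormone conflicts are all 15 libraries of F1 HFHS+Veh and all 5 of F2 HFHS+DHT. Those in the generation are 8 libraries of F2 HFHS+Veh and 8 of F3 HFHS+Veh. The numbers that name an animal in some titles were read as such by inference. Oocyte 21 of F3 CD+Veh stood apart in several measures given below, and values that it moves most are given with and without it.

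Cells make cholesterol from acetyl-CoA through mevalonate, isoprenoid units, squalene and a series of sterols. When sterols run low, SCAP escorts the SREBP proteins away from INSIG, and the released fragment of SREBP-2 switches on the genes of this route. Oocytes are known as poor makers of cholesterol that draw much of it from the surrounding cumulus cells, and a fully grown oocyte no longer transcribes, so that its RNA is a store laid down earlier.

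On mm10 the genes lie as follows in the GENCODE annotation, over exons and introns together. Hmgcs1 is at chr13:119690379-119708260 on the plus strand and Idi1 at chr13:8885501-8892451 on the plus strand. Fdft1 is at chr14:63145150-63179578 on the minus strand, Sqle at chr15:59315077-59331192 on the plus strand and Lss at chr10:76531588-76557138 on the plus strand. Cyp51 is at chr5:4081145-4104746 on the minus strand and Dhcr7 at chr7:143823145-143848410 on the plus strand. Sqle and Dhcr7 overlap no other gene. Fdft1 overlaps Ctsb and Cyp51 overlaps Akap9, both protein coding and on the opposite strand, and Hmgcs1, Idi1 and Lss overlap noncoding genes of the opposite strand. Whether counting used strand is not given in the sources used here, so reads of these 5 that fall where exons of both genes overlap may not be told apart. How far the exons overlap was not examined.

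Promoter letters were read from RefSeq on GRCm38.p6, in windows of 300 bases that reach from 250 before to 50 after each start. A window was found for 5 of the 7 genes. The most abundant member and the 2 rarest are set side by side, each as the 150 bases from 180 to 31 before the start. Capitals mark TCACCCCAC, most of a known sterol regulatory element, the NF-Y box CCAAT, which reads as ATTGG from the other strand, and the GC box GGGCGG, which reads as CCGCCC from there. All 3 stretches are on the plus strand of the genome, which is the genes' own strand.
Hmgcs1, chr13:119690171-119690320: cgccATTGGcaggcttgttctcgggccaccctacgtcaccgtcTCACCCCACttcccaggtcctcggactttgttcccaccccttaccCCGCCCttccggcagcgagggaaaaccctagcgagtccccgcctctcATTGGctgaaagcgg
Lss, chr10:76531425-76531574: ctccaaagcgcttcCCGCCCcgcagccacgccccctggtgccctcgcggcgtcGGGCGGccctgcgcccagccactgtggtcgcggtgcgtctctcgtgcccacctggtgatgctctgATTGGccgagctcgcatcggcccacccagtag
Dhcr7, chr7:143822987-143823136: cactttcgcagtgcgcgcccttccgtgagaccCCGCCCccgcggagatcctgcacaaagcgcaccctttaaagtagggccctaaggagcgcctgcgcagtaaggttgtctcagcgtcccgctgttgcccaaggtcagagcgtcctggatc

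The 9 letters TCACCCCAC were found in the Hmgcs1 window, at -137 to -129, and in no window of Idi1, Lss, Cyp51 or Dhcr7. They occur in 181 of 32851 promoter windows of that length on either strand, or 0.551%. The shorter CACCCCA, which lies inside those 9 letters, was likewise found only for Hmgcs1 among the 5 and occurs in 7.62% of windows. Dhcr7 had 3 windows, which makes 7 for the 5 genes. CCAAT was found in 5 of these 7 windows, against 37.4% of all windows, GGGCGG in 6 of 7 against 35.7%, and CACGTG, the E-box, in 1 of 7 against 7.15%. Dhcr7's CCAAT and CACGTG lay in starts other than the one printed. A match of letters is a description and not evidence of binding.

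In MII oocytes the members fell far apart in level. The values compared between genes are the authors' RPKM, which allow for gene length. Hmgcs1, the synthase that makes HMG-CoA, had a median of 111 RPKM over the 157 oocytes, with 589 of 23995 genes above it. Fdft1, which joins farnesyl units into squalene, followed at 4.83 RPKM. Sqle, which puts the oxygen on squalene and is a slow step of the route, stood at 2.21, and Cyp51, the lanosterol demethylase, at 1.36. Below 1 RPKM were Idi1, the isomerase of the isoprenoid unit, at 0.697, and Dhcr7, the last reductase before cholesterol, at 0.117. Lss, which folds oxidosqualene into lanosterol, had a median of 0. By mean instead of median RPKM the order was the same except for Dhcr7, which moved from the sixth to the third place at 3.504. There 1 oocyte had 370 RPKM, against an upper quartile of 1.05. The same oocyte held 26.27% of all its raw counts.

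**Figure D1:**
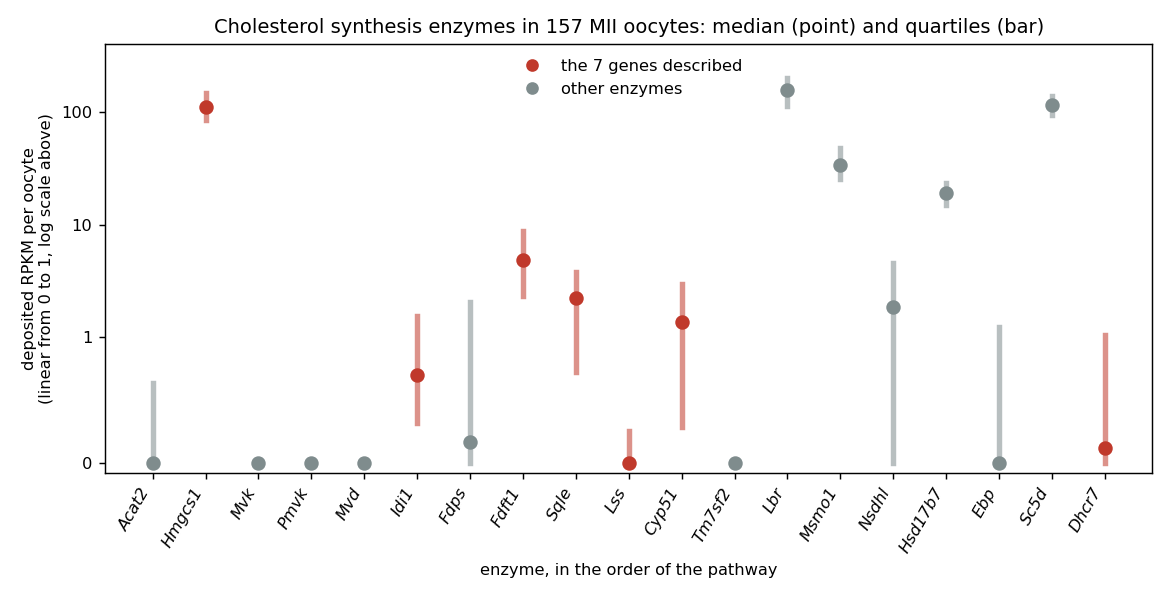
Level of 19 enzymes of cholesterol synthesis in 157 MII oocytes. The horizontal axis gives the enzymes in pathway order and the vertical axis the deposited RPKM per oocyte, linear from 0 to 1 and on a log scale above; points are medians, bars run from the lower to the upper quartile, and the 7 genes described are red. Hmgcs1 at 111 RPKM stands beside Lbr and Sc5d in height, while Lss is at 0.

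The rest of the pathway showed the same patchwork. Of 12 early enzymes, listed from acetyl-CoA to squalene with Ggps1 beside that line, 5 had a median of at least 1 RPKM. Ggps1, at 1.90 RPKM, is among the 5. So had 7 of the 12 sterol enzymes a median of at least 1 RPKM, and over all genes the share was 30.2%. The most abundant early enzymes were Acat1, a mitochondrial thiolase, at 113 RPKM and Hmgcs1. Acat2, listed beside Acat1, had a median of 0 and a count in 64 of 157 oocytes. The most abundant sterol enzymes were Lbr, a sterol reductase that also holds chromatin to the nuclear envelope, at 157, and Sc5d, a sterol desaturase, at 115. The kinases and the decarboxylase that turn mevalonate into the isoprenoid unit had medians of 0, with a count for Mvk in 9, Pmvk in 25 and Mvd in 27 of 157 oocytes. These 3 genes, like Acat2 above and Msmo1 below, were picked out after their values were seen. Msmo1, a sterol methyl oxidase, had a median of 33.7 RPKM.

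Uptake genes were as uneven. Of 14, 5 had a median of at least 1 RPKM. Npc1, which lets cholesterol out of lysosomes, led with 76.4 and was followed by Cd36, a scavenger receptor, with 40.9. Scarb1, the HDL receptor, had 4.49 RPKM. Of 13 control genes with a line, 9 had a median of at least 1 RPKM. Insig1, which holds SREBP back, had 696 RPKM, whereas Srebf2, the gene of SREBP-2, had 0.538. Among 12 efflux and ester genes, 6 had a median of at least 1 RPKM, led by Nceh1, a cholesteryl ester hydrolase, with 77.2 and Soat1, which makes cholesteryl esters, with 16.7.

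How often a member was seen differed between genes and moved with depth. Hmgcs1 had a count in 157 of 157 oocytes, Fdft1 in 142, Idi1 in 133, Sqle in 131, Cyp51 in 127, Dhcr7 in 83 and Lss in 54. Thinned to 100000 counts per oocyte, Hmgcs1 was still seen in 100% of oocytes, Fdft1 in 58.6%, Cyp51 in 49.0%, Sqle in 42.7%, Idi1 in 32.5%, Dhcr7 in 19.7% and Lss in 5.096%. Idi1 thus moved from the third to the fifth place once depth was equal. All 7 members had a count in 39 oocytes, while none held more than 5 of them after thinning. At that depth an absent count does not show that the RNA is absent.

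Hmgcs1 had a count in every oocyte, and its groups overlapped in each generation. In CPM, its lowest, median and highest oocyte were 144.6, 389 and 577 in F1 CD+Veh, 218, 444 and 682 in F1 CD+DHT, and 249, 356 and 477 in F1 HFHS+Veh. F1 HFHS+DHT ran from 247 over 332 to 676. All 4 F1 groups overlap. In F2 the same 3 values were 254, 428 and 900.4 in CD+Veh, 238, 575 and 1045 in CD+DHT, and 84.7, 455 and 933 in HFHS+Veh. The 5 oocytes of F2 HFHS+DHT had 431, 432, 618, 490 and 580 CPM, inside the ranges of the other F2 groups. In F3 they were 6.46, 317 and 571 in CD+Veh, 169.9, 288 and 432 in CD+DHT, whereas HFHS+Veh had 160.2, 299.6 and 774. Ranked by median, F2 CD+DHT stood highest, at 575 CPM, and F3 CD+DHT lowest, at 288. The quartile ranges of every pair of neighbours in that ranking overlap. Neighbours are close through the ranking itself, so this says nothing of groups further apart. The value of 6.46 rests on 2 counts in oocyte 21 of F3 CD+Veh; without that oocyte the median was 333.

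**Figure D2:**
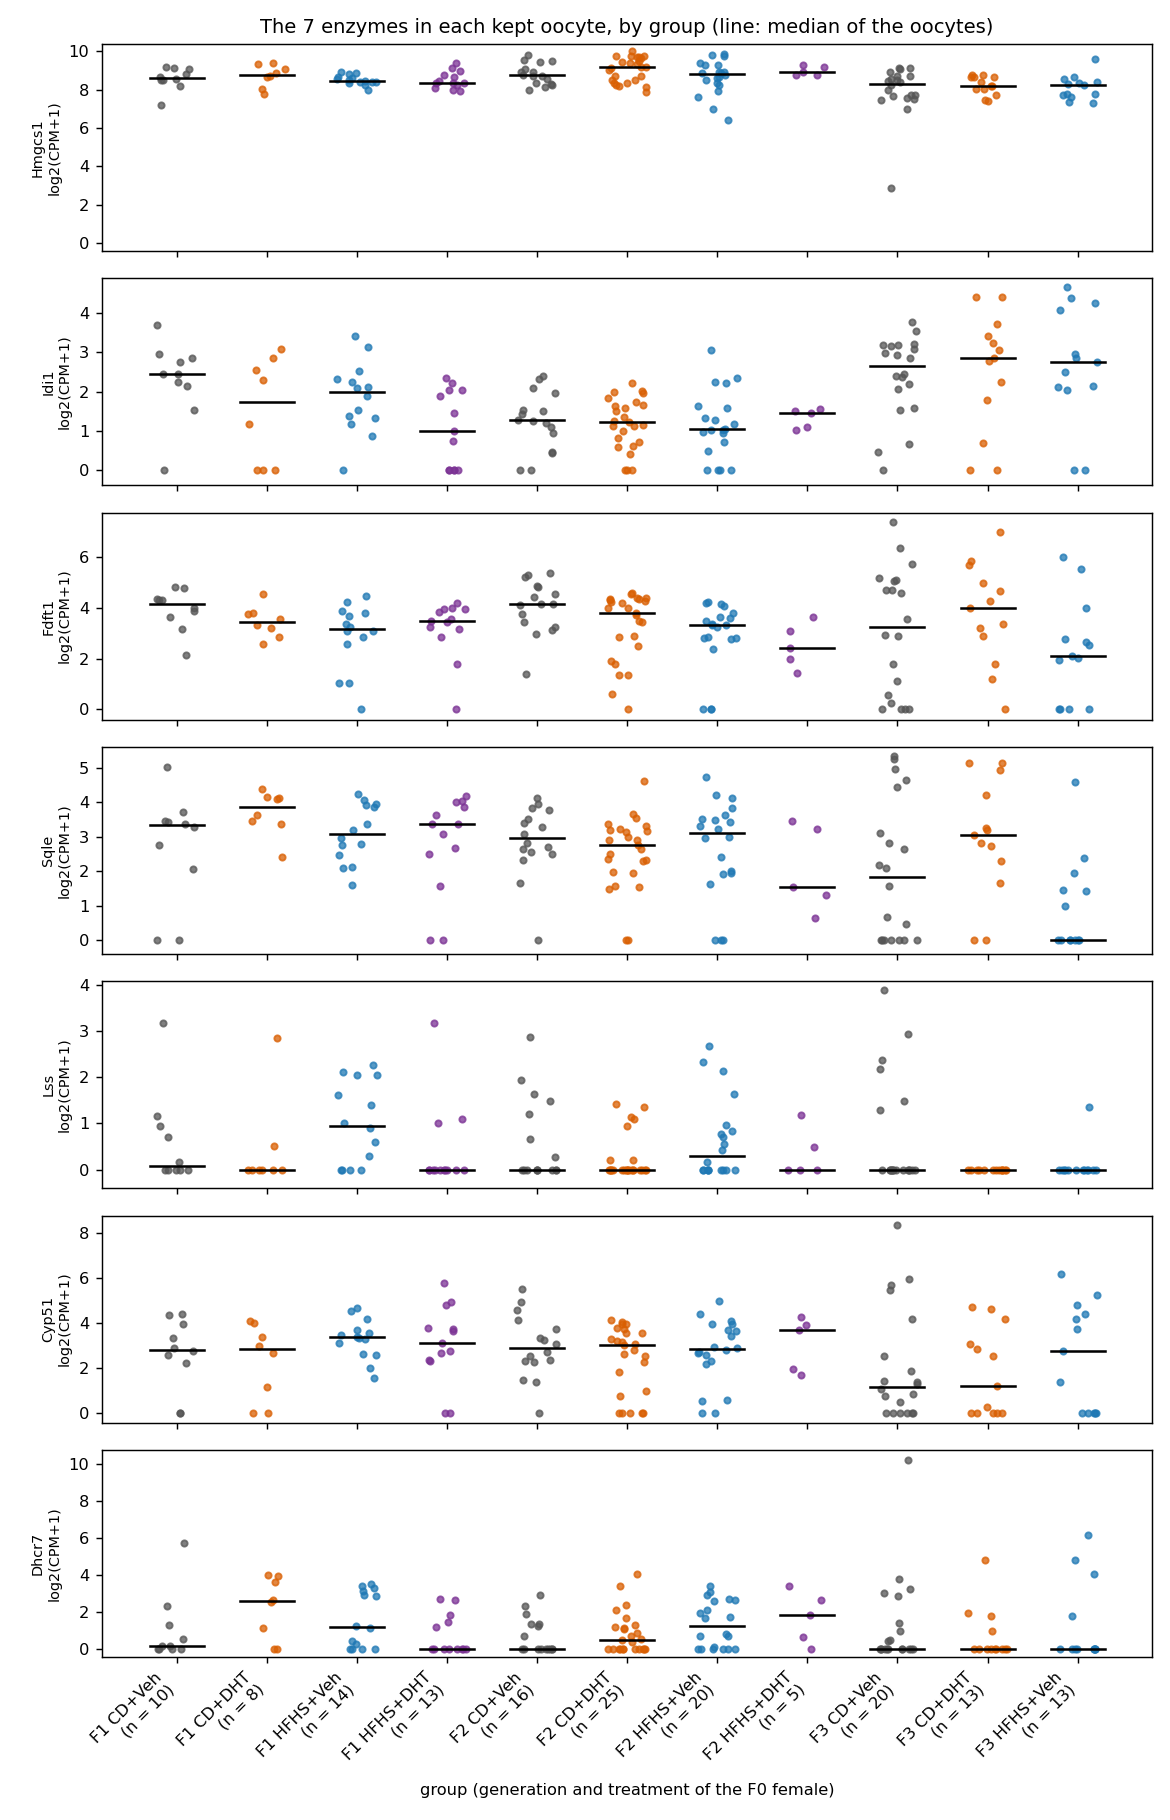
Level of the 7 enzymes in every kept oocyte. Each panel is a gene, the horizontal axis gives the 11 groups with their number of oocytes and the vertical axis log2(CPM + 1); points are oocytes and black lines medians. Hmgcs1 is above 0 in every oocyte, Lss is at 0 in most oocytes, and Dhcr7 has 1 point far above the rest, oocyte 21 of F3 CD+Veh.

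Idi1 was scarce but differed in level between the generations' groups. Pooled over the oocytes of a group, it had 4.66, 3.80, 3.32 and 1.77 CPM in F1 CD+Veh, CD+DHT, HFHS+Veh and HFHS+DHT. The 4 F2 groups lay between 1.56 and 2.09 CPM, below all 3 F3 groups at 6.09, 7.998 and 8.87. Its highest oocyte, at 24.4 CPM, was in F3 HFHS+Veh, and every group but F2 HFHS+DHT had oocytes with no count.

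Fdft1 was seen in most oocytes and varied more than Hmgcs1. Its pooled level was 18.4 CPM in F1 CD+Veh and 10.13 to 10.33 in the other 3 F1 groups. The F2 values were 20.5 for CD+Veh, 13.8 for CD+DHT, 10.7 for HFHS+Veh and 4.599 for HFHS+DHT, whose 5 oocytes had 1.68, 11.6, 2.995, 7.65 and 4.34. In both generations CD+Veh thus had the highest pooled value. That did not hold in F3, where CD+DHT had 32.6 CPM, CD+Veh 21.2 and HFHS+Veh 10.05. The F3 medians were 15.1, 8.76 and 3.31 CPM in that order, with oocytes at 0 in each of these groups and a highest oocyte of 126, 168 and 63.2. The 168 was oocyte 21 of CD+Veh; without it the highest there was 82.1, the median 6.76 and the pooled value 20.4.

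Sqle had its highest pooled level in F3 CD+DHT as well, at 17.17 CPM, against 12.3 in F3 CD+Veh and 4.31 in F3 HFHS+Veh. In the latter 6 of 13 oocytes had a count, so its median was 0. The 4 F1 groups lay between 6.84 and 11.4 CPM, and F2 between 2.80 in HFHS+DHT and 8.79 in CD+Veh. Its highest oocyte reached 39.2 CPM, in F3 CD+Veh.

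Lss was the rarest. No group exceeded 1.77 CPM pooled, the value of F1 HFHS+DHT, where 3 of 13 oocytes had a count. F3 CD+DHT had 0 counts in 13 oocytes, which allows up to 0.06265 CPM at a floor of 3 counts over the group. F3 HFHS+Veh had 1 count. In F3 CD+Veh 6 of 20 oocytes carried 75 counts between them, and the highest oocyte of all, at 13.7 CPM, was there.

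Cyp51 reached 16.03 CPM in F2 CD+Veh and was 5.44 to 12.6 CPM in the other 10 groups. Its counts were spread unevenly over oocytes: in F3 CD+Veh the pooled value was 12.6 but the median oocyte 1.27, and in F3 CD+DHT 12.2 against 1.32. Oocyte 21 of F3 CD+Veh had 323 CPM, and without it the pooled value of that group was 10.96 and the median 1.09.

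Dhcr7 had a pooled 0.725 to 8.19 CPM, and its place depended on single oocytes. F3 CD+Veh had 8.19 CPM with oocyte 21 and 1.86 without it. That library held 1217 CPM of Dhcr7 (377 counts), 168 of Fdft1 and 2789 of Srebf2, but 0 of Insig1, Idi1 and Lss. It also had 14.33% spike-in counts, 4603 genes and 21043 CPM summed over the 26 cumulus markers with a median under 1 CPM, against medians of 1.12 to 229 CPM per group. In F1 CD+Veh, oocyte 7 held 52.1 CPM of Dhcr7 while the next had 4.03. It had 376 CPM of the same cumulus markers and 172869 gene counts. The part of other cells in these 2 libraries was not tested further.

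The F2 generation allows a test over animals. Counts were summed per animal, 4 for CD+Veh, 5 for CD+DHT and 4 for HFHS+Veh, and fitted together. By edgeR's quasi-likelihood test with Benjamini-Hochberg adjustment, CD+DHT against CD+Veh called 0 of the 7 members, and 0% of the 11962 genes tested. HFHS+Veh against CD+Veh called 0 of 7 and 0% of all genes. CD+DHT against HFHS+Veh likewise called 0 of 7 and 0% of all genes. All 7 members passed the filter on low counts. At an unadjusted p under 0.05 the first contrast had 212 genes (1.77%) and no member, the second 113 (0.945%) and 1 member, and the third 120 and no member; DESeq2 called 1, 0 and 1 genes in the same order and limma called 0, with no member in either. The 3 contrasts share their groups, so their values are given side by side only. In no contrast did the animals of the groups stand apart for any member; over all genes they did so for 0.936%, 1.15% and 0.660%.

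Animals differed widely within each group. Hmgcs1 was at 329, 762, 386 and 518 CPM in the CD+Veh animals 2, 3, 13 and 14. It was at 413, 310.1, 749, 691 and 444 CPM in the CD+DHT animals 6, 7, 8, 9 and 17. It was at 233, 455, 735 and 420.5 CPM in the HFHS+Veh animals 4, 5, 10 and 19. The lowest animals of the 3 groups thus had 329, 310.1 and 233 CPM and the highest 762, 749 and 735, so the groups covered much the same range. The log2 difference of CD+DHT from CD+Veh was 0.29 (SE 0.38, edgeR quasi-likelihood test, Benjamini-Hochberg adjusted p = 0.99995), and that of HFHS+Veh from CD+Veh was 0.04 (SE 0.40), or -0.54 without the oocytes whose characteristics name another generation. On log2(CPM + 1), the SD of Hmgcs1 was 0.46 among oocytes of an animal and 0.61 between animal means. The median gene had the opposite order, 0.98 among oocytes and 0.57 between animals, over 7249 genes at 5 CPM or more.

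Fdft1 gave the lowest unadjusted p among the members. It was at 34.5, 25.43, 14.6 and 8.39 CPM in CD+Veh, at 14.6, 16.5, 7.203, 6.399 and 16.99 in CD+DHT, and at 12.7, 11.9, 4.91 and 11.5 in HFHS+Veh, in the animal order above. CD+Veh animal 14 lay below the highest animals of both other groups and CD+Veh animal 13 below CD+DHT animals 7 and 17, so the groups overlap, while CD+Veh animals 2 and 3 exceeded every animal of the other groups. The log2 difference of HFHS+Veh from CD+Veh was -0.93 (SE 0.39, unadjusted p = 0.0295 by edgeR's quasi-likelihood test) and did not pass after Benjamini-Hochberg adjustment (adjusted p = 0.99997). That of CD+DHT was -0.58 (SE 0.36).

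Lss, near the limit of detection, had 1.41, 1.46, 0.0499 and 1.17 CPM in the CD+Veh animals and 1.67, 1.65, 0.136 and 0.610 in the HFHS+Veh animals. In CD+DHT it had 0.641, 0.497, 0, 0 and 0.219 CPM. The log2 difference of CD+DHT from CD+Veh was -1.73 with an SE of 1.24, and the groups overlap through CD+Veh animal 13. Sqle ranged over 7.63 to 11.2 CPM among CD+Veh animals, 3.94 to 9.84 among those of CD+DHT and 3.13 to 12.7 among those of HFHS+Veh. Cyp51 ranged over 3.89 to 31.3, 5.92 to 11.1 and 6.27 to 14.99 CPM in the same order. Idi1 stayed between 0.743 and 2.69 CPM and Dhcr7 between 0.252 and 3.92 CPM in the 13 animals. The median difference of the 7 members was -0.21, 0.04 and -0.12 in the 3 contrasts, beside -0.01, 0.02 and -0.02 for all genes.

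**Figure D3:**
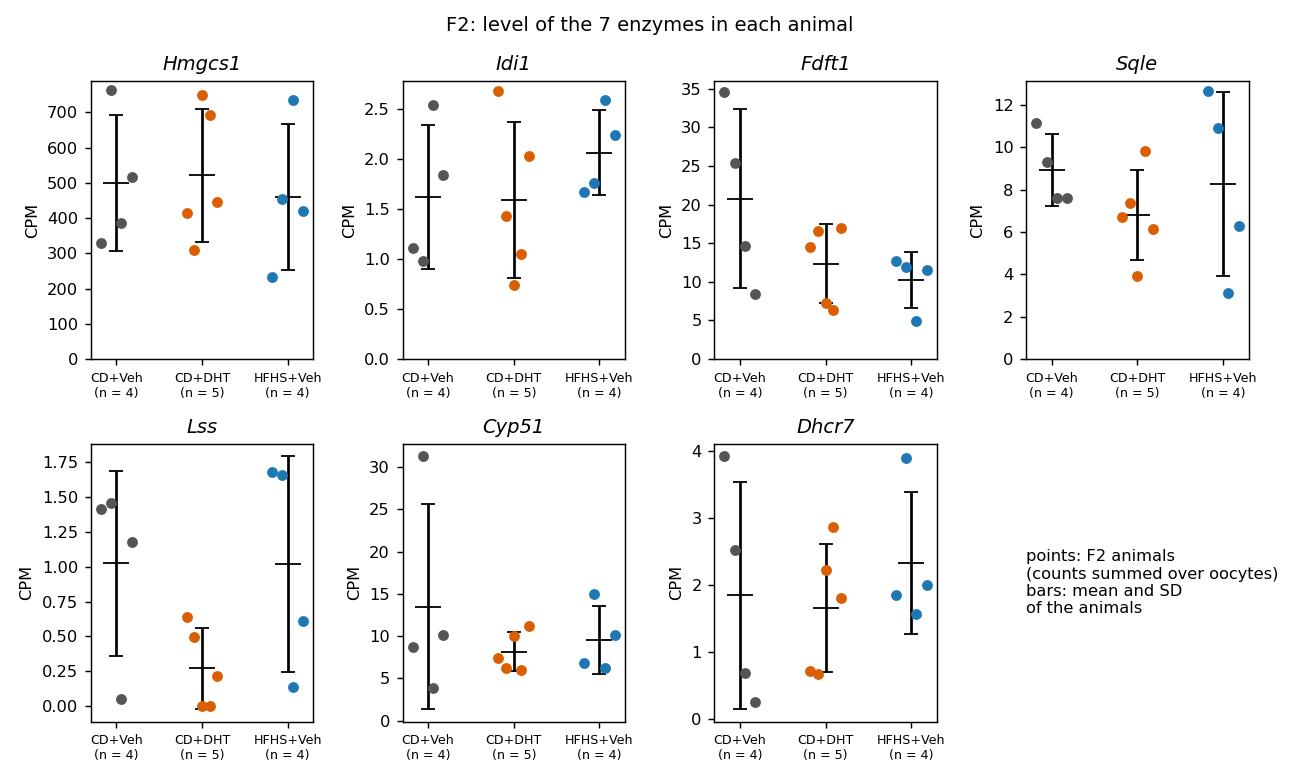
Level of the 7 enzymes in the 13 F2 animals. Each panel is a gene, the horizontal axis gives the group with its number of animals and the vertical axis CPM of the counts summed per animal; points are animals and bars show mean and SD. The groups overlap in every panel, and the points of Fdft1 reach 34.5 CPM in CD+Veh against 16.99 in CD+DHT and 12.7 in HFHS+Veh.

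The rest of the pathway gave no called gene in F2 either. Of 8 early and 11 sterol enzymes that passed the filter, edgeR's quasi-likelihood test called 0 in each contrast, and of 12 uptake, 12 control and 8 efflux genes it called 0 as well. Fdft1 was the only gene of these lists with an unadjusted p under 0.05. Insig1 was at 3271 ± 2431 CPM (SD) over the 4 CD+Veh animals, 5540 ± 4423 over the 5 of CD+DHT and 3615 ± 2630 over the 4 of HFHS+Veh. On simulated counts for CD+DHT against CD+Veh, the same fit recovered 34 of 200 genes changed by 2-fold, so 2-fold differences mostly escape it. It recovered 183 of 200 changed by 4-fold and 197 of 200 changed by 8-fold, with 5 and 7 false calls. These shares are over all changed genes, and recovery of the listed genes was not tested. In the measured counts of that contrast, the SE was 1.24 for Lss and 0.77 for Insig1, against 0.38 for Hmgcs1.

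In F2, Hmgcs1 went with Insig1 from oocyte to oocyte. Over 157 oocytes, Spearman's rho between the CPM of the 2 genes was 0.56. Within generations it was 0.14 in F1, 0.68 in F2 and 0.03 in F3, so the relation rests on F2 and on levels that differ between generations. With Lbr the rho of Hmgcs1 was 0.58 over all and 0.34, 0.74 and 0.07 in F1, F2 and F3, and with Srebf2 it was -0.12 over all. Oocytes of an animal share that animal, and all values share the scaling to a fixed total, so these are descriptions. In F2, animals 8, 9 and 10 held Insig1 at 7765, 12328 and 7517 CPM, above all 10 other F2 animals. Their Hmgcs1, at 749, 691 and 735 CPM, was exceeded only by that of animal 3, with 762, and the other 9 animals had at most 518. These 3 animals had medians of 7956, 7771 and 8447 genes with a count, the lowest of the 13, and across F2 oocytes Hmgcs1 had a rho of -0.54 with the number of genes detected. The part of library complexity in the relation was not tested.

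**Figure D4:**
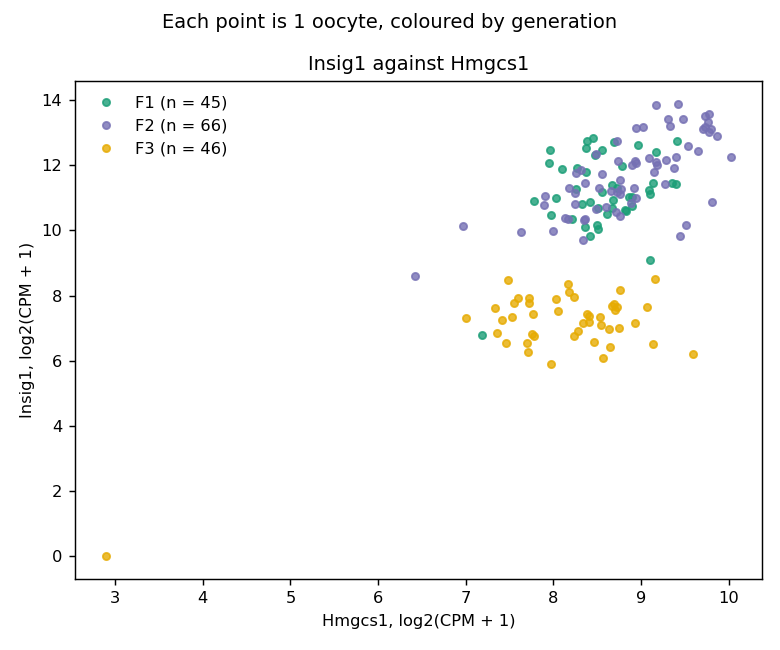
Insig1 (vertical axis) against Hmgcs1 (horizontal axis) in 157 oocytes. Both axes give log2(CPM + 1), each point is an oocyte and colours mark the generation. The F2 values go together, with a rho of 0.68, and the F3 points lie lower for Insig1.

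The members themselves did not move as a block. Their 21 pairwise rhos ran from -0.27 to 0.25, with a median of 0.06, and sparse counts weaken such values. The genes most like each member, of 4583 genes compared over the same oocytes, were as follows. For Hmgcs1 they included Cdk12 (rho 0.64) and 1110058L19Rik (0.63). For Idi1 they were the oocyte gene Oog3 (0.61), C87414 (0.60) and the histone-RNA binding gene Slbp (0.60). Weaker were Gps2, Cd7 and Tcf25 for Fdft1 (0.43, 0.43 and 0.42), and Ppt2, Cd164l2 and Plat for Sqle (0.45, 0.44 and 0.43). Camk2g, Actn4 and Csad were most like Lss (0.49, 0.47 and 0.45), Shisa5, Cnot8 and Lpcat1 most like Cyp51 (0.41, 0.40 and 0.39), and Arf1, Fbxo42 and Tbc1d2b most like Dhcr7 (0.47, 0.42 and 0.42). Lss had a rho of 0.52 and Sqle of 0.44 with the number of genes detected.

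Insig1 stood lower in F3 oocytes than in those of F1 and F2, and Hmgcs1 less so. Medians of F1, F2 and F3 oocytes were 374, 481 and 299.9 CPM for Hmgcs1 and 3.08, 1.31 and 6.02 for Idi1. For Insig1 they were 2341, 3427 and 159. The highest F3 oocyte had 363 CPM of Insig1, and every F2 oocyte was above it, the lowest at 391, while 1 F1 oocyte was at 109.9. Some other genes of the route stood higher in F3: Msmo1 and Hsd17b7, named after their values were seen, had 108 to 149.7 and 132 to 154 CPM in the F3 groups, against at most 69.8 and 117 in F1 and F2. Lbr, the most abundant sterol enzyme, went the other way, with 283 to 369 CPM in the F3 groups and 573 to 726 in F1 and F2. Cd36 had 445 to 507 CPM in the F3 groups and 87.7 to 163 in the others, and Soat1 201 to 289 against 49.8 to 103. No date or batch is given in the labels, so generation and the handling that went with it cannot be told apart, and no test was made. The oocytes with 2 conflicting generation labels sat with the generation of the title: 8 titled F2 had 1703 to 11080 CPM of Insig1, and the 5 titled F3 had 72.3 to 239.8.

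For F1 and F3, animals are named for 1 group alone, so each group was 1 pool and no p was computed. Pooled counts were compared as log2 folds with 95% intervals for counting error only, and a fold of 2 marks what is counted. The F1 HFHS+Veh libraries, all with a contradicted hormone label, entered under their titles. In F1, 0 of 4 members at 5 CPM or more passed 2-fold in any of the 5 comparisons, where 3.94% of all genes did for CD+DHT against CD+Veh, 3.35% for HFHS+Veh against CD+Veh, 3.76% for HFHS+DHT against CD+Veh, 3.74% for HFHS+DHT against HFHS+Veh and 4.45% for HFHS+DHT against CD+DHT. The member nearest to the line was Cyp51, at 0.995 in HFHS+DHT against CD+DHT, while Hmgcs1 differed by -0.23 to 0.20. Fdft1 was lower in each group than in CD+Veh, by -0.86 for CD+DHT, -0.84 for HFHS+Veh and -0.83 for HFHS+DHT, all against the same 10 CD+Veh oocytes. Sqle was higher than in CD+Veh by 0.60, 0.64 and 0.73 in the same order, but by equal weight of oocytes these were 0.52, -0.02 and -0.09, so the latter 2 rest on pooling. The count of 0 depends on single oocytes: in CD+DHT against CD+Veh, Sqle was 1.10 without CD+DHT oocyte 6, Fdft1 -1.04 without oocyte 2 and Cyp51 -1.20 without oocyte 1, and in HFHS+DHT against CD+DHT Cyp51 was 1.36 without that last oocyte.

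The 3 members under 5 CPM gave larger folds on few counts. Idi1 in HFHS+DHT against CD+Veh was -1.40 (interval -2.03 to -0.81, 31 against 103 counts), and between -1.66 and -1.11 with any 1 oocyte left out. Dhcr7 exceeded CD+Veh, which had 16 counts, by 2.01 for CD+DHT and by 2.19 for HFHS+Veh. When every oocyte weighed the same these were 0.17 and -0.60, and without CD+Veh oocyte 7 the pooled folds were 3.19 and 3.38, so no size can be read. Lss in HFHS+Veh was 1.98 above CD+Veh (interval 0.98 to 3.17, 69 against 9 counts), but 0.36 by equal weight of oocytes. Its fold of 2.12 in HFHS+DHT turned to -0.22 without oocyte 6 of that group. Beside these, 9 of 15 cumulus markers at 5 CPM or more were past 2-fold higher in HFHS+Veh than in CD+Veh, where 2.71% of all genes were, and 7 of 14 in HFHS+DHT, where 1.63% were. In HFHS+Veh their summed level over the 26 rarest was 0.232 to 1375 CPM per oocyte, in CD+Veh 2.21 to 500, and their part in these folds was not tested.

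In F3 a larger share of all genes was past 2-fold than in F1. For CD+DHT against CD+Veh 7.53% of all genes were past 2-fold higher and 6.78% lower, and 1 of 6 members, Dhcr7, was lower. Dhcr7 reached 5 CPM there only through oocyte 21 of CD+Veh, and without that oocyte 0 of 5 members were past 2-fold. For HFHS+Veh against CD+Veh the share was 14.9% in either direction and 10.6% lower, and 2 of 6 members, Fdft1 and Sqle, were lower. Without oocyte 21 both remained past 2-fold, at -1.02 and -1.52, while Dhcr7, then under 5 CPM, went from -0.24 to 1.89. For CD+DHT against HFHS+Veh it was 20.7% in either direction, and 2 of 5 members, again Fdft1 and Sqle, were higher. The comparisons share groups, so the latter count adds no support to the one before it. Hmgcs1 differed by -0.04, 0.10 and -0.14 in these 3, under counts of 18311, 14367 and 2526 in CD+Veh, CD+DHT and HFHS+Veh.

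Fdft1 in HFHS+Veh against CD+Veh was -1.08 (interval -1.43 to -0.74) and ran from -1.91 to -0.83 as single oocytes were left out. Of the 2 HFHS+Veh animals, 22 had 2.39 CPM and 26 had 19.29, so they differ by more than the groups do. Sqle was -1.51 (interval -2.06 to -1.01). It was -3.73 without oocyte 7 of animal 22, which alone carried most of the 33 counts of the group. In CD+DHT against HFHS+Veh, Fdft1 was 1.70 and Sqle 1.99, and without CD+DHT oocyte 14 they were 1.001 and 0.96. The same oocyte decided the sign of both against CD+Veh: Fdft1 went from 0.62 to -0.08 and Sqle from 0.48 to -0.55 without it.

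Dhcr7 in CD+DHT against CD+Veh was -1.82 with all oocytes. It was 0.32 without CD+Veh oocyte 21 and -4.92 without CD+DHT oocyte 22, so no direction can be read. Cyp51 was within -0.05 to 0.01 in the 3 F3 comparisons, but rested on single oocytes. In CD+DHT against CD+Veh it was -1.22 without CD+DHT oocyte 14 and 0.98 without CD+Veh oocyte 23. In HFHS+Veh against CD+Veh it was 0.97 without the same CD+Veh oocyte. By equal weight of oocytes the 3, in the order of the shares above, were -1.95, -0.78 and -1.17. Those against CD+Veh include CD+Veh oocyte 21, at 323 CPM of Cyp51, so no size can be read from them. Pooled, Cyp51 in CD+DHT and HFHS+Veh against CD+Veh was 0.16 and 0.15 without that oocyte. Lss was at least 4.33 lower on the log2 scale in CD+DHT than in CD+Veh, with 0 against 75 counts, a bound at the floor of 3 counts. In HFHS+Veh it was -3.27 on 1 count, with an interval of -8.60 to -0.75. Beside these, 9 of 18 cumulus markers at 5 CPM or more were past 2-fold lower in CD+DHT than in CD+Veh and 1 was higher. Of all genes, 6.78% were lower and 7.53% higher there. In HFHS+Veh 4 of 17 were lower than in CD+Veh, where 10.6% of all genes were. Both marker counts include CD+Veh oocyte 21, which held 21043 CPM of the 26 rarer markers, and are not given without it. The part of the markers in the members' values was not tested.

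**Figure D5:**
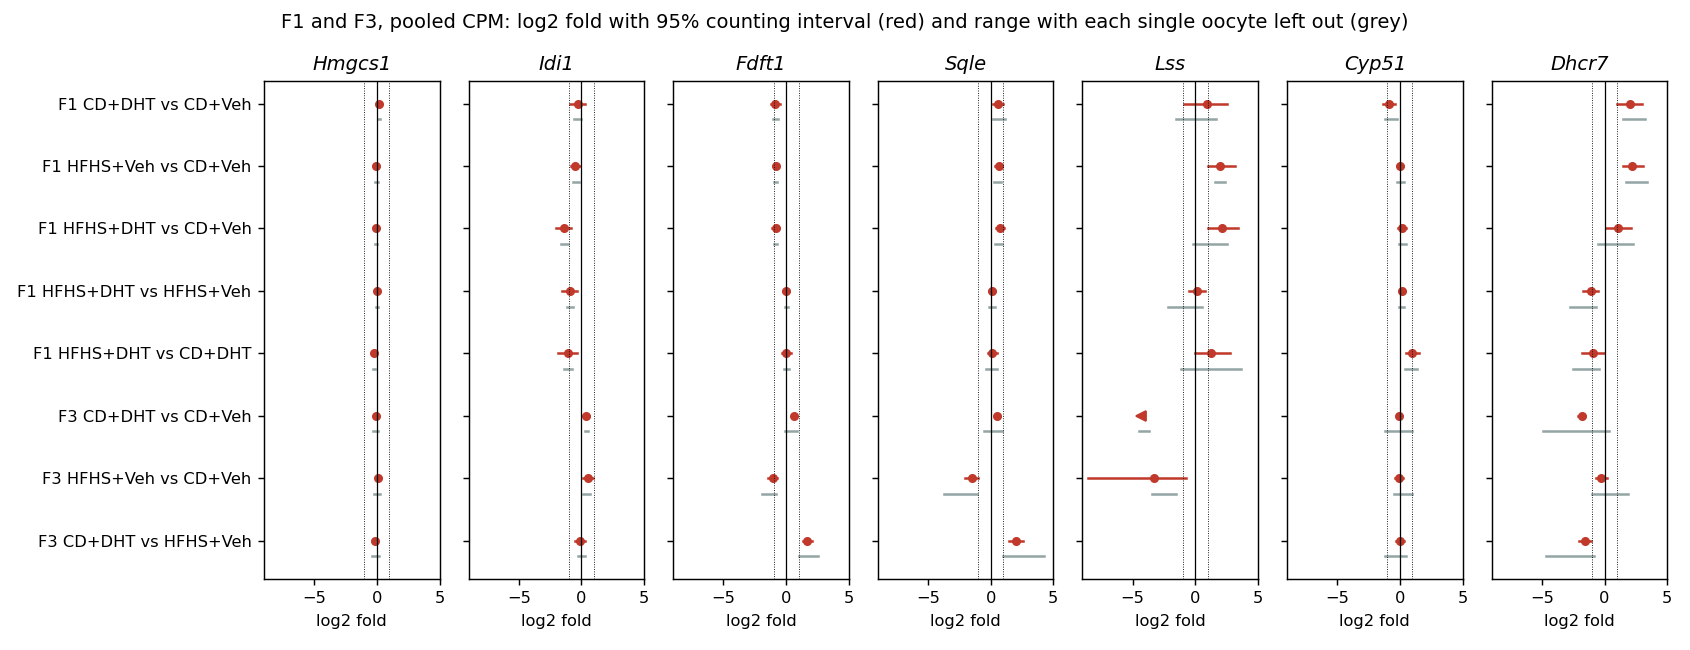
Log2 fold of the 7 enzymes in each comparison. Each panel is a gene, the vertical axis lists the comparisons and the horizontal axis gives the log2 fold; red points carry the 95% interval of counting error for F1 and F3, grey bars the range with any 1 oocyte left out, triangles mark a bound and dotted lines 2-fold. Hmgcs1 lies near 0 in every comparison, while the grey bar of Dhcr7 in F3 CD+DHT against CD+Veh spans -4.92 to 0.32.

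Of the wider pathway lists, Apoe, the lipoprotein that carries cholesterol between cells, was past 2-fold in the most pooled comparisons, 6 of 8. These share groups and are not separate observations, and in them 3.35% to 20.7% of all genes were past 2-fold. Apoe was picked from the lists by these folds, so they lend it no support. F1 CD+Veh and F3 HFHS+Veh were under 5 CPM, so in their comparisons Apoe reached the mean of 5 CPM through the higher group. In F1 it had 3.03 CPM in CD+Veh, 11.6 in CD+DHT, 16.7 in HFHS+Veh and 16.2 in HFHS+DHT, or 1.94, 2.46 and 2.41 on the log2 scale above the first, which had 67 counts. The intervals of counting error were 1.47 to 2.42, 2.102 to 2.85 and 2.02 to 2.82, and the last fold was 0.84 without oocyte 3 of HFHS+DHT. Its F3 values were 10.8 CPM for CD+Veh, 39.9 for CD+DHT and 3.78 for HFHS+Veh. The fold of CD+DHT over CD+Veh, 1.89, was -0.81 without CD+DHT oocyte 14, that of HFHS+Veh, -1.51, was 0.52 without CD+Veh oocyte 22, and that of CD+DHT over HFHS+Veh, 3.398, was 0.69 without CD+DHT oocyte 14. Oocytes without a count occurred in every group, and single oocytes reached 237 CPM in F1 HFHS+Veh and 175 in F3 CD+Veh. The group medians of Apoe were 2.66 to 7.36 CPM in F1 and 0 to 3.96 in F3. In F2 its log2 difference was 0.08 (SE 0.69) for CD+DHT and -0.56 (SE 0.73) for HFHS+Veh against CD+Veh, neither passing edgeR's quasi-likelihood test. Insig1 was -0.19 to 0.75 in the 8 pooled comparisons and passed 2-fold in none.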

How the data were processed

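The members and lists were chosen with earlier results of these data known. Raw counts and RPKM values, each by gene symbol and for the same 202 libraries, were used as deposited. STAR 2.4.2a, Seurat 2.0 and mm10 are named in the submitters' processing notes, without a role. Which program counted reads, and with what gene lengths, is not given in the sources used here. There were 24582 lines in the count table, 92 of them spike-in RNAs, which had a share of 0.0280% to 14.33% (median 0.252%) in kept libraries and entered no total. Lines that repeat a symbol were summed. Library totals ran from 615 to 16359078 gene counts over all libraries, and 45 libraries under 100000 gene counts or 4000 genes were left out. No 2 libraries were identical (0 pairs), and chi-square divided by its degrees of freedom was at least 2.29 within groups.

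For F2, counts were summed per animal and fitted over 13 animals with edgeR 4.0.16 in R 4.3.3 (TMM, filterByExpr, robust quasi-likelihood, Benjamini-Hochberg over all genes, threshold 0.05). DESeq2 1.42.0 and limma 3.58.1 were alternatives. The fit was tested on simulated data. F2 HFHS+DHT, with no animal named and a contradicted hormone label on all 5 libraries, was described only. F1 HFHS+Veh, with a contradicted hormone label on all 15 libraries, was kept in the pooled comparisons under its title. For F1 and F3, counts were pooled over kept oocytes, with exact Poisson 95% intervals and no test; all genes averaging 5 CPM or more were the background. A zero was set to a floor of 3 counts over the group. Intervals and floors cover counting error only, since reads carried no molecular identifiers and PCR copies of a molecule cannot be recognised. Nothing in the labels says that oocytes of a group without named animals came from separate mice, so the spread among them may be that of few animals. Thinning drew 100000 counts per oocyte with a fixed seed. Markers of other cells and pathway lists were fixed by name.

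Genes were named by a rule: the 7 members; the 2 genes of each pathway list with the highest median RPKM; Scarb1, Srebf2, Insig1 and others fixed by name; pathway genes past 2-fold in 3 or more of the 8 pooled comparisons; and, for each member, the 3 genes with the highest Spearman rho among genes that reach a mean of 20 CPM and have a count in at least 50% of oocytes. Some genes that the rule names are not reported here. Python 3.11.15, numpy 2.4.6, pandas 2.3.3, scipy 1.17.1 and matplotlib 3.10.9 were used. The closing section gives the effect of the alternatives.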

Additional observations from a re-analysis of the deposited data

Results flagged for a closer look

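In groups of 4 to 10, a value was marked when its gap to the nearest other was large against the range of the group. This marked 6 of 42 groups. The limits used mark about 1 in 20 by chance in normally distributed values, a rate that sparse counts such as those of Lss need not follow. Oocyte 7 of F1 CD+Veh was marked for 2 members: it had the lowest Hmgcs1 of its group, 144.6 CPM against 296 for the next, and the highest Dhcr7, 52.1 CPM against 4.03 (n = 10 oocytes). For Lss, oocyte 14 of F1 CD+Veh had 8.07 CPM against 1.25 for the next highest (n = 10), and oocyte 1 of F1 CD+DHT had 6.19 against 0.436 (n = 8). Among F2 animals, CD+Veh animal 13 had the lowest Lss, 0.0499 CPM against 1.17 (n = 4), and HFHS+Veh animal 10 the lowest Fdft1, 4.91 CPM against 11.5 (n = 4). The labels of all 5 oocytes of animal 10 name another generation in the characteristics than in the title.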

How the results depend on the processing

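No paired analysis was possible because F2 animal numbers are not shared between groups, and in F1 and F3 the numbers only name oocytes of groups compared without a test. In F2, members called stayed at 0 in all 24 alternatives and all 26 fits with 1 animal left out; DESeq2 called 1 gene, no member, in CD+DHT against CD+Veh and 1 in CD+DHT against HFHS+Veh. F2 differences near 0 changed sign in places. Idi1 in CD+DHT against CD+Veh was -0.0040 with RLE size factors, -0.018 with limma, -0.0048 with the stricter filter (500000 counts and 6000 genes) and -0.0015 with 2 groups in the fit. In HFHS+Veh against CD+Veh, Hmgcs1, Idi1 and Lss were -0.23, -0.041 and -0.030 with limma, and -0.54, -0.014 and -0.12 without oocytes whose characteristics name another generation. In CD+DHT against HFHS+Veh, Idi1 was 0.023 with limma and 0.016 without those oocytes, where Cyp51 was 0.25. With 1 animal left out, ranges that cross 0 were -0.25 to 0.39 for Idi1, -0.74 to 0.15 for Cyp51 and -0.22 to 0.88 for Dhcr7 (CD+DHT against CD+Veh). For HFHS+Veh against CD+Veh they were -0.42 to 0.27 for Hmgcs1, -0.36 to 0.14 for Sqle, -0.36 to 0.39 for Lss and -0.61 to 0.26 for Cyp51. For CD+DHT against HFHS+Veh they were -0.40 to 0.15 for Sqle and -0.27 to 0.094 for Cyp51.

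In F1 and F3, low counts and single oocytes limit the rarer members. With equal weight of oocytes, Dhcr7 was -0.60 (HFHS+Veh) and -2.16 (HFHS+DHT), and Lss -0.49 (HFHS+DHT), all F1 against CD+Veh; Lss in HFHS+DHT against CD+DHT was -0.082. With mean RPKM the same 4 were -0.59, -2.15, -0.50 and -0.083. With 1 oocyte left out they ran from -0.22 to 2.5002 (Lss) and -0.54 to 2.27 (Dhcr7) for HFHS+DHT against CD+Veh, and from -1.12 to 3.65 for Lss against CD+DHT. Dhcr7 in F3 CD+DHT against CD+Veh was 0.36 with the stricter filter, 0.32 without the 1 oocyte above the upper fence of all cumulus markers and 0.22 without those rich in the 26 rarer ones, an alternative chosen after seeing the data; the range with 1 oocyte left out was -4.92 to 0.32. Counts of members past 2-fold over all 7 lines stand beside the share of genes at 1 CPM or more that were. The counts also take members under 1 CPM, which lie outside that share. Lss had 1.26, 0 and 0.131 CPM in F3 CD+Veh, CD+DHT and HFHS+Veh. It is thus counted in both F3 comparisons against CD+Veh with a mean under 1 CPM. F1 CD+DHT against CD+Veh had 1, beside 13.38% (0 with equal weight, 0 with RPKM, 2 with the stricter filter, 1 to 4 with 1 oocyte left out). HFHS+Veh against CD+Veh had 2, beside 12.1% (0 and 0 with equal weight and RPKM), and HFHS+DHT against CD+Veh had 3, beside 12.8% (1 by medians). HFHS+DHT against HFHS+Veh had 1, beside 12.5% (2 and 2 with equal weight and RPKM, 0 without the oocytes rich in cumulus markers, 0 to 2 with 1 left out). HFHS+DHT against CD+DHT had 2, beside 14.6% (1 with equal weight, medians or RPKM, and 1 to 4 with 1 left out). F3 CD+DHT against CD+Veh had 2, beside 25.74% (1 by medians, with the stricter filter, without the oocyte above the fence or without those rich in markers, and 1 to 3 with 1 left out). F3 HFHS+Veh against CD+Veh had 3, beside 26.604% (4 without CD+Veh oocyte 21), and CD+DHT against HFHS+Veh had 3, beside 32.1%. The cause was not tested. Of the other F1 and F3 folds, 274 moved by less than the spread between oocytes and 16 moved by more without a change of sign at 2-fold. That spread is one of single oocytes, and sign changes of folds under 2-fold were not marked, so the 274 do not show stability. Sqle in F1 HFHS+Veh against CD+Veh, 0.64 pooled and -0.02 by equal weight of oocytes, is among them. The fence left out no oocyte in the other comparisons and gave no value there.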
